A study of Mus musculus with 24 samples.

Results

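The 11 genes described here were already well covered by reads in untreated embryonic stem cells (ESCs) and were at least about doubled in 2 lines in which the Polycomb complex PRC1, or its catalytic activity, was removed. They were chosen from the calibrated RNA-seq (cRNA-seq) table by 3 criteria: a mean normalised read count of at least 1000 in the untreated cells of both lines, a mean log2(value + 1) that was higher by at least 1 after treatment in both lines, and a RefSeq NM_ transcript outside 13 dropped families of gene names. Of 17000 gene symbols left by the name filters, 4889 reached the floor and 11 met every criterion: *P4ha2*, *Sdk1*, *Ak4*, *Arih2*, *Megf11*, *Serpine2*, *Eif2s2*, *Slit2*, *Hmga2*, *Pcsk6* and *Zbtb7c*. The whole table held 20633 transcripts, of which 16940 had at least 10 reads in at least 3 libraries and were tested, all 11 genes among them. The treatment change chose these genes, so their changes with treatment are given as descriptions, with no test.

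The libraries came from mouse E14 ESCs of 2 lines, each derived as 1 clone. PRC1CKO cells (Ring1a-/-; Ring1bfl/fl; Rosa26::ERT2-Cre) lack RING1A, and 72 h in 4-hydroxytamoxifen (OHT, 800 nM) removes RING1B through the recombinase. PRC1CPM cells carry Ring1aI50A/D53K, so that RING1A is catalytically inactive before treatment, and Rosa26::ERT2-Cre. Their other allele, Ring1b(WT->I53A/D56K)fl/fl, switches from wild-type to inactive RING1B under the same OHT treatment. Each line was sampled untreated and after OHT, with 3 biological replicates in each of the 4 conditions (12 libraries), and *Drosophila* cells were mixed in so that reads could be scaled to cell number. No OHT-treated cells without the floxed alleles were analysed here, so an effect of OHT itself and an effect of the loss of PRC1 or its catalysis cannot be told apart. Each library held from 14668159 to 27016156 reads over transcripts. The values are means over many cells, in which fewer cells expressing a gene and less RNA per cell cannot be told apart.

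RING1A and RING1B are alternative catalytic subunits of PRC1, a Polycomb complex that attaches ubiquitin to histone H2A in the chromatin of silent genes. The complex occupies CpG islands, the CpG-rich promoters of many developmental genes, where it works with PRC2 to keep transcription low. *Ring1*, which encodes RING1A and is partly deleted in PRC1CKO cells, had between 166 and 313 normalised reads in PRC1CKO and between 111 and 182 in PRC1CPM libraries. Reads on *Rnf2*, which encodes RING1B, were 1526 ± 201 before and 1546 ± 50.8 after OHT in PRC1CKO cells, and 1696 ± 140 and 1511 ± 214 in PRC1CPM cells (normalised read count, mean ± SD, n = 3). The counts cover the whole gene bodies and only part of each is altered, so these values are no check of the labels. PRC1 binding was not analysed here. ESC markers were high: the 10 markers measured, of which *Tdgf1* was the most abundant, summed to between 39989 and 91874 in every library.

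In RefSeq's promoter table (GRCm38.p6, 250 bases before to 50 after each transcription start), 9 of the 11 genes had an entry at their locus; *Megf11* and *Zbtb7c* were not matched. For 7 of the 9 the entry began at the transcript counted here; that of *Arih2* lay 28 and that of *Hmga2* 466 bases from it. The promoters held a median of 29 CpG dinucleotides in 300 bases, against 7 over all 32851 promoters of the table, and all 9 lay above that median. Taking the most CpG-rich promoter of each gene, the median was 30 for the 9 genes and 26 for 3963 matched of the 4878 other genes at or above the floor, so a count of this size was common among genes with high counts. *Sdk1* (54 CpG) and *Pcsk6* (52) were the richest and *Hmga2* (12) the poorest. Promoters of 4 genes are shown: *Eif2s2* and *Arih2* had the highest levels per length, and *P4ha2* and *Sdk1* the largest changes when the lower of both lines is taken. They are printed 5′ to 3′ on the strand of the gene, with every CpG in capitals.

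Eif2s2 (chr2:154892857-154893156, minus strand, 24 CpG): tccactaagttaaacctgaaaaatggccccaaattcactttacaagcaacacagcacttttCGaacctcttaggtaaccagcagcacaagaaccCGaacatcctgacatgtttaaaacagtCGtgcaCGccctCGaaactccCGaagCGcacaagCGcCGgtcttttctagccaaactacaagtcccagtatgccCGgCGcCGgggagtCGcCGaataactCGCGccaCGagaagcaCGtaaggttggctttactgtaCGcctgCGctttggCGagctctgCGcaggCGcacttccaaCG
P4ha2 (chr11:54100674-54100973, plus strand, 26 CpG): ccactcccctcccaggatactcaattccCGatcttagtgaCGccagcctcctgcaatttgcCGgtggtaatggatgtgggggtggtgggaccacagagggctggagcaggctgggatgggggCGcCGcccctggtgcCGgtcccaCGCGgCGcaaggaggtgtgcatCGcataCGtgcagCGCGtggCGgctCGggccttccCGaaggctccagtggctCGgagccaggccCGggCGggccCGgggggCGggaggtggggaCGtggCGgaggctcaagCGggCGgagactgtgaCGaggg
Arih2 (chr9:108649359-108649658, minus strand, 26 CpG): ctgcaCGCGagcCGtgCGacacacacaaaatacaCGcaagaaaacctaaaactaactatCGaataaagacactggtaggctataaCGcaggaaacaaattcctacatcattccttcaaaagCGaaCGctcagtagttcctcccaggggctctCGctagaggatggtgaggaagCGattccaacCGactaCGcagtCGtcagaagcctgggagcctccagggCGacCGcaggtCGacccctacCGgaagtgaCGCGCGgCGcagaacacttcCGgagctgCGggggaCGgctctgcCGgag
Sdk1 (chr5:141241284-141241583, plus strand, 54 CpG): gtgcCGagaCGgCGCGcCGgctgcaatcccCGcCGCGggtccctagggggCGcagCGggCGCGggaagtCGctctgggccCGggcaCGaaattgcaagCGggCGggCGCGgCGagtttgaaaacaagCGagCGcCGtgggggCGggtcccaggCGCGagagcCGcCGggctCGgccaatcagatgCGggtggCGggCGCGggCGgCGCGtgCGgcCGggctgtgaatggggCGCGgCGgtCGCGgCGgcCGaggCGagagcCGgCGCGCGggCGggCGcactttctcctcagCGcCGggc

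In *Sdk1* the first 150 bases held 24 and the last 150 bases 30 CpG, while in *P4ha2* (8 and 18), *Arih2* (9 and 17) and *Eif2s2* (7 and 17) they crowded towards the start site. The GC box GGGCGG, searched on both strands, was in 7 of the 9 promoters and in 35.7% of all promoters. The TATA box TATAAA was in 1 of the 9, *Slit2*, against 13.6% of all, and the YY1 motif GCCATNTT in 1, *Eif2s2*, against 6.05%. The E-box CACGTG was in none of the 9 and in 7.15% of all. GGGCGG itself holds a CpG, so the counts of this motif and of CpG overlap.

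Doubling after OHT was rare among genes that were already high. A log2 change of at least 1 in both lines was met by 503 of 3484 genes (14.4%) whose lower untreated mean was below 10 normalised reads, by 635 of 2618 (24.3%) between 10 and 100, by 343 of 6009 (5.71%) between 100 and 1000, and by 11 of 4889 (0.225%) from 1000 upwards. Of those 4889 genes, 28 reached it in PRC1CKO cells only and 5 in PRC1CPM cells only, and 13 fell by at least as much in both. The median log2 change of the other 4878 genes was -0.0038 in PRC1CKO and -0.0035 in PRC1CPM cells. A low count carries more counting error and depends more on the pseudocount of 1, so noise can carry more genes of the lower bins past the limit. The bins were also set on the untreated values that enter the change. The shares of the bins are therefore not strictly comparable.

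**Figure D1:**
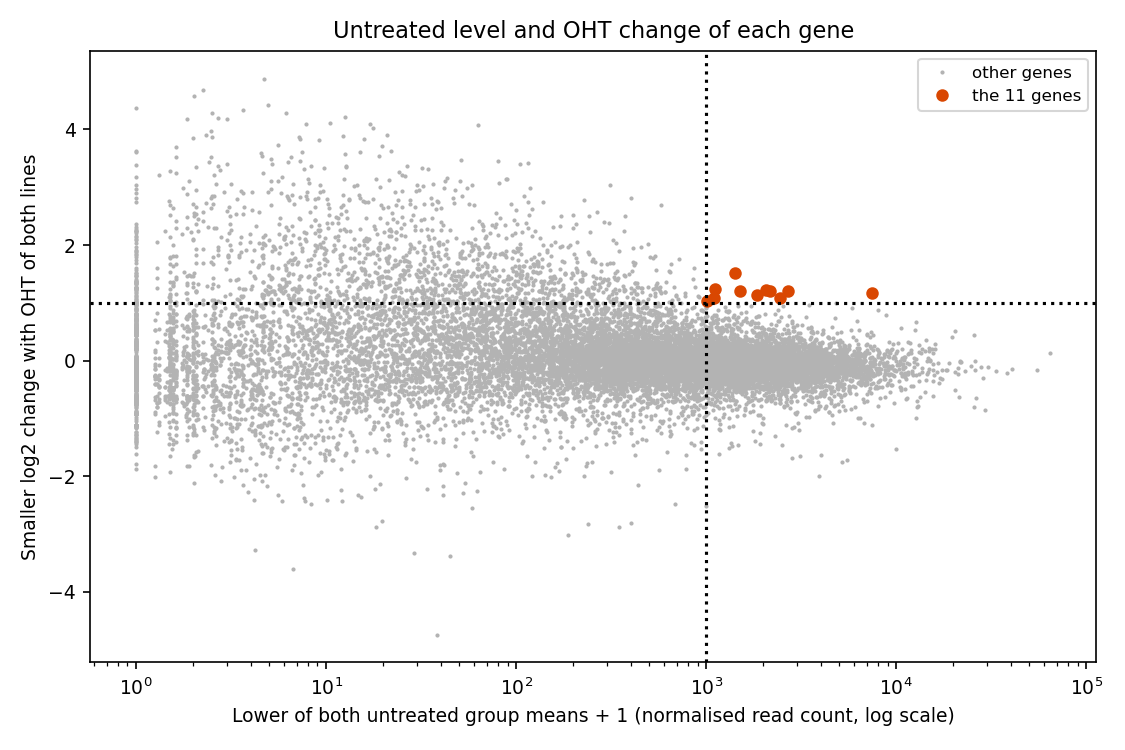
Each point is 1 gene, with the lower of its untreated means (normalised read count + 1, log axis) against the smaller of its log2 changes with OHT in PRC1CKO and PRC1CPM cells, and dotted lines at the limits of 1000 and 1. The 11 genes (orange) form the sparse upper right corner, while genes with lower untreated counts reach far larger changes.

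Near the limits, membership was a matter of small differences. The 3 genes just inside the change limit were *Zbtb7c* (smaller log2 change 1.04), *Pcsk6* (1.09) and *Hmga2* (1.09). Just outside it lay *Plxdc2* (0.997 in PRC1CPM cells), *Sdc4* (0.996) and *Nudt4* (0.959 in PRC1CKO cells). At the floor, *Zbtb7c* was inside with 1009 in untreated PRC1CPM cells, and *Rxra* (910), *Cachd1* (906) and *Anks1b* (870 in PRC1CKO cells) were outside. The dropped family names took out a pair of genes that otherwise met every criterion, *Col4a1* and *Col4a2*, which encode the chains of basement membrane collagen IV. *Col4a1* went from 3709 ± 1738 to 11344 ± 1430 in PRC1CKO cells and from 2962 ± 309 to 6820 ± 1791 in PRC1CPM cells.

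The floor of 1000 is on reads over the gene body, introns included, and favours long genes. Per kb of gene body, the 11 genes did not stand together: 5 lay above and 6 below the median of 20.2 normalised reads per kb of all transcripts tested, and the other genes at or above the floor had a median of 63.0. The median gene body was 116 kb, against 38.3 kb for those other genes and 23.1 kb for all transcripts tested. Per length of gene body, then, 6 of the 11 genes lay below that median. This length includes introns, where spliced RNA leaves no reads. A value per kb can therefore be low for a gene with long introns whatever its level of mature RNA, which was not measured separately. Exons made up between 0.876% (*Sdk1*) and 11.7% (*Eif2s2*) of the gene bodies, so that most of the counted stretch was intronic.

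*Eif2s2* was the highest per length, at 392 ± 69.7 normalised reads per kb in the untreated cells (mean ± SD over the 6 libraries of both lines), above 97.5% of transcripts tested. *Arih2* (61.2 ± 10.1), *P4ha2* (59.1 ± 24.5), *Ak4* (45.4 ± 9.10) and *Serpine2* (34.6 ± 7.54) followed, and the libraries of neighbours in this order overlapped. Below the median came *Pcsk6* (13.4 ± 2.22), *Hmga2* (9.82 ± 2.34), *Slit2* (6.70 ± 1.60), *Megf11* (5.01 ± 1.20), *Zbtb7c* (3.25 ± 0.722) and *Sdk1* (1.38 ± 0.483). Neighbours from *Pcsk6* to *Zbtb7c* overlapped too, while *Eif2s2*, the step from *Serpine2* to *Pcsk6* and *Sdk1* stood clear. *Sdk1*, with a gene body of 972 kb, was longer than 99.7% of transcripts tested and lay at the 14.8th percentile per kb, although its count was at the 73.7th.

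**Figure D2:**
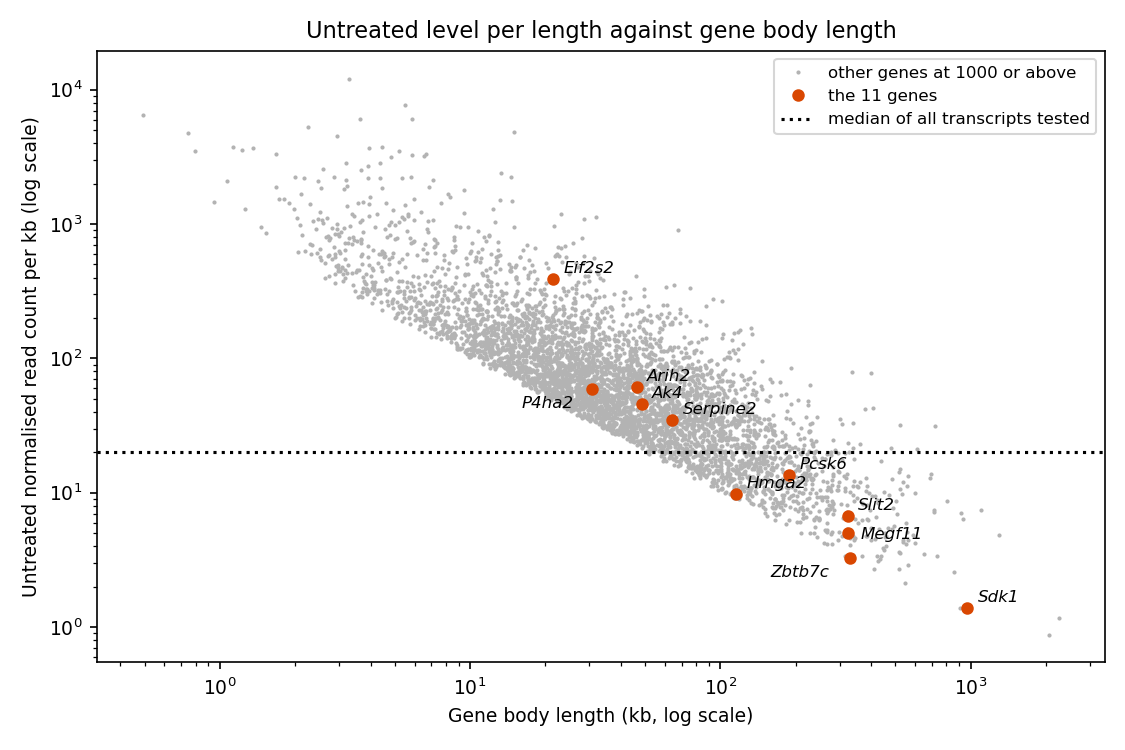
Untreated normalised read count per kb (mean of 6 libraries, log axis) against gene body length (kb, log axis) for the genes at or above the floor, with the 11 genes in orange and a dotted line at the median of all transcripts tested. *Eif2s2* sits high among genes of its length, and the 6 genes over 100 kb lie under the line.

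After OHT, every member was higher in each of the 3 treated libraries than in any untreated library of the same line, in both lines. This holds for 22.1% of all transcripts tested in PRC1CKO and for 18.7% in PRC1CPM cells, and limma called 16.5% and 13.1% of them higher; nothing is read from it for the 11 genes, which were chosen on this contrast. Their log2 changes ran from 1.04 to 1.88 (median 1.38) in PRC1CKO and from 1.07 to 1.52 (median 1.20) in PRC1CPM cells. Over same-numbered pairs of libraries the range was 0.771 to 2.40 and 0.679 to 2.04. Summed over the 11 genes, the normalised read count was 28078 ± 5882 untreated and 72880 ± 2663 after OHT in PRC1CKO cells, and 26650 ± 3235 and 61958 ± 8171 in PRC1CPM cells (mean ± SD, n = 3).

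**Figure D3:**
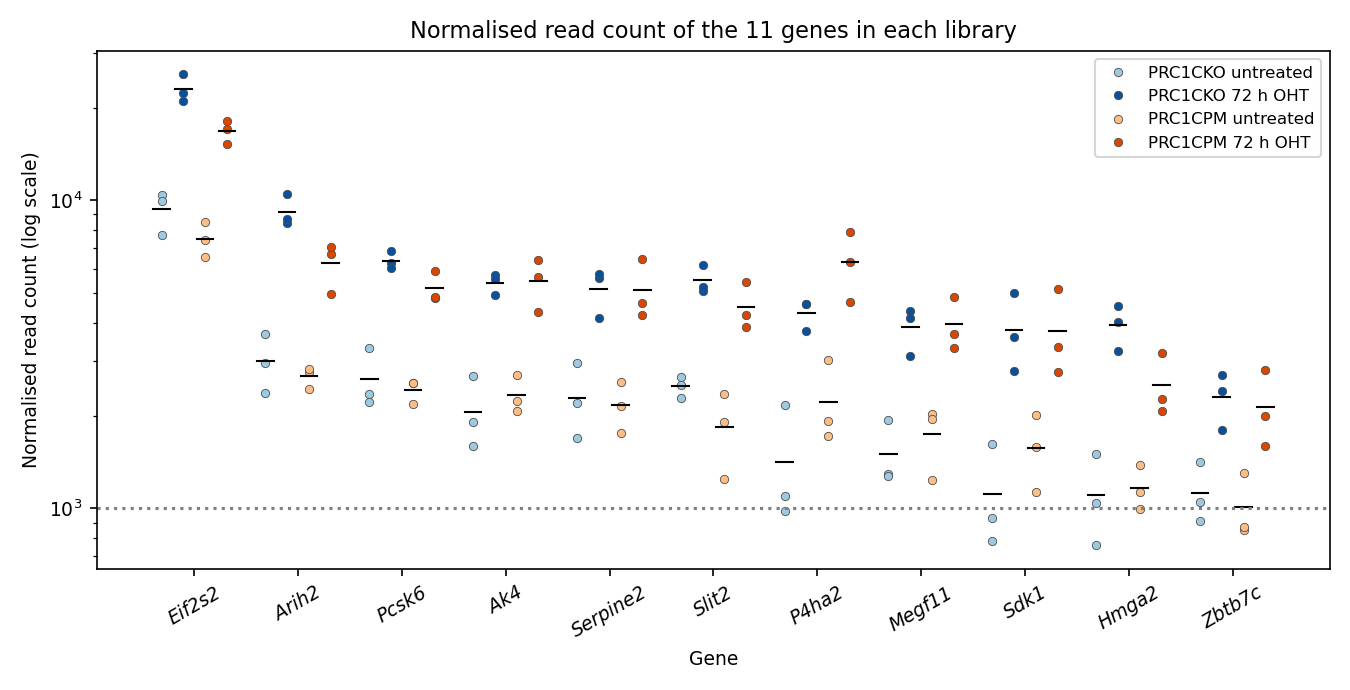
Normalised read count (log axis) of each of the 11 genes in the 12 libraries, as points coloured by line and treatment, with a bar at the mean of each 3 libraries and a dotted line at 1000. In each gene and each line the OHT-treated points lie above all untreated ones, and the untreated PRC1CKO points have 1 library on top throughout.

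The untreated PRC1CKO libraries kept nearly the same order for all members. Replicate 1 was the highest of its group for all 11 genes and replicate 3 the lowest for 10, the exception being *P4ha2*. For *Eif2s2* it was replicate 3 that stood apart (10393, 9941 and 7721 normalised reads), and for *Slit2* no single library stood apart (2675, 2513 and 2283). Replicate 1 also differed in its total: its normalised reads over all transcripts (24958300) were 1.24 times the group's mean, while the other libraries of that group had 17618100 and 17755800. Replicate 1 was also the highest for 7 of the 11 genes in the other 3 conditions, and in each of these its total was the highest of its group. Its part in the members' values was not tested.

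The genes of basic cell functions are described first. *Eif2s2* (NM_026030, chr2:154871410-154892906) encodes the beta subunit of eIF2, which brings the initiator tRNA to the ribosome. It stood at 10393, 9941 and 7721 normalised reads in untreated PRC1CKO cells and at 21003, 25660 and 22305 after OHT. In PRC1CPM cells it stood at 7443, 8475 and 6532 untreated and at 17040, 15224 and 18066 after OHT. The treated libraries of the lines did not overlap, with PRC1CPM below, whereas the untreated ones did.

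None of the partner genes tested was called. The 7 genes of eIF2 and of its exchange factor eIF2B that were tested were *Eif2s1*, *Eif2s3x* and *Eif2b1* to *Eif2b5*. They had log2 changes between 0.035 and 0.353 in PRC1CKO and between 0.0068 and 0.348 in PRC1CPM cells, and limma called none of them in either line. Over all transcripts tested, limma called 19.5% in PRC1CKO and 14.5% in PRC1CPM cells, in either direction. The relatives here and below were named from the members' families and partners, with the members and earlier results of these data known. The log2 change of *Eif2s2* was 1.30 and 1.17.

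*Arih2* (NM_011790, chr9:108602943-108649380) encodes a RING-between-RING ubiquitin ligase that works with cullin-RING ligases. It had 3675, 2954 and 2368 normalised reads in untreated PRC1CKO cells and 10449.5, 8439 and 8696 after OHT. In PRC1CPM cells it had 2780, 2827 and 2437, and 6714, 4958 and 7041 after OHT, so that the treated groups again did not overlap. Its paralogue *Arih1* (log2 change 0.091 and 0.15) and its cullin partner *Cul5* (0.26 and 0.17) were not called in either line.

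The nearest gene above *Arih2* on the chromosome rose as well. *Slc25a20*, which encodes the mitochondrial carnitine-acylcarnitine carrier, lies 12.7 kb away on the opposite strand, from 108662098 to 108684641. It went from 580 ± 133 to 1859 ± 132 in PRC1CKO cells (log2 change 1.70 ± 0.23, SE, adjusted p = 5.37e-08, limma) and from 571 ± 56.9 to 1406 ± 309 in PRC1CPM cells (1.28 ± 0.23, adjusted p = 3.72e-05). Of the 22 nearest neighbours of the 11 genes, 17 were tested, and *Slc25a20* was the only one of them called higher in both lines, where 3 were called higher in PRC1CKO and 1 in PRC1CPM cells and none lower. Of all transcripts tested, 16.5% and 13.1% were called higher in these lines. The remaining calls in PRC1CKO cells were *Pdlim4*, 31.9 kb from *P4ha2* (log2 change 0.84), and *Fam124b*, 340 kb from *Serpine2* (1.84). *Fam124b* had only 4.66 normalised reads in untreated cells, and *Pdlim4* had 192. A fit with the replicate number as a block added 1 call in PRC1CKO cells, *0610043K17Rik* (0.70, adjusted p = 0.00331, limma). One member, *Zbtb7c*, was overlapped by another transcript of the table, *2900057B20Rik*, which had 0.256 normalised reads in untreated cells.

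*Ak4* (NM_001177602, chr4:101419289-101467771) encodes an adenylate kinase of the mitochondrial matrix. It went from 2063 ± 562 to 5411 ± 434 in PRC1CKO cells and from 2336 ± 339 to 5473 ± 1044 in PRC1CPM cells. Of 3 paralogues examined, only *Ak5*, a kinase known from the brain, was called, and it was higher in both lines (log2 change 2.05 ± 0.32, SE, adjusted p = 9.90e-07, and 1.73 ± 0.32, adjusted p = 4.34e-05, limma). *Ak5* started from 58.2 ± 9.56 normalised reads in untreated PRC1CKO cells. *Ak1* and *Ak3* had log2 changes between -0.066 and 0.31 in either line. Among all transcripts tested, 16.5% and 13.1% were called higher in PRC1CKO and PRC1CPM cells.

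Next come the genes of the extracellular matrix and of secreted enzymes. *P4ha2* (NM_001136076, chr11:54100924-54131667) encodes a catalytic subunit of the prolyl hydroxylase that matures collagen. It had 2170, 978 and 1094 normalised reads in untreated PRC1CKO cells and 4597, 3758 and 4606 after OHT. In PRC1CPM cells it had 3028, 1715 and 1925 untreated and 6317, 4693 and 7893 after OHT. PRC1CPM cells were the higher line without overlap after treatment, while the untreated groups overlapped through replicate 1 of PRC1CKO.

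The other subunits were not called without a block for the replicate number, and 2 of them were called with it. The block called 25.1% of all transcripts in PRC1CKO and 20.6% in PRC1CPM cells, in either direction. *P4ha1* encodes the more abundant catalytic subunit, at 103 against 59.1 normalised reads per kb for *P4ha2* in untreated cells, and its log2 change was -0.74 ± 0.28 (SE, adjusted p = 0.0531, limma) in PRC1CKO and -0.36 in PRC1CPM cells. With the block it was called lower in PRC1CKO cells (adjusted p = 9.73e-08, limma). *P4ha3* had log2 changes of 0.54 and 1.09, and the block called it higher in PRC1CPM cells (adjusted p = 0.0117). The shared beta subunit *P4hb* had log2 changes of 0.54 (adjusted p = 0.0701, limma) and 0.15.

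*Serpine2* (NM_009255, chr1:79794321-79858665) encodes a secreted inhibitor of thrombin and of the plasminogen activators. Its normalised read count was 2288 ± 640 and 5171 ± 892 in PRC1CKO cells and 2160 ± 409 and 5111 ± 1185 in PRC1CPM cells, before and after OHT. Of the proteases that *Serpine2* blocks, the urokinase gene *Plau* was called higher in both lines (1.46 ± 0.33, adjusted p = 0.000633, and 1.17 ± 0.33, adjusted p = 0.00945, limma), and *Plat* (0.71 and 0.71) and *F2* (-1.04 and -0.36) were not called. With the replicate block *Plat* was called higher in both lines (adjusted p = 0.00317 and 0.00350, limma) and *F2* lower in PRC1CKO cells (adjusted p = 0.0174). The counts of *F2* in PRC1CKO cells were low, 22.7 ± 2.99 normalised reads before and 11.5 ± 5.66 after OHT.

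*Pcsk6* (NM_001291184, chr7:65862136-66050386) encodes PACE4, a secreted convertase that cleaves precursors of the TGF-beta family. It had 2631 ± 601 and 6377 ± 402 in PRC1CKO and 2432 ± 213 and 5188 ± 602 in PRC1CPM cells, before and after OHT. Of 5 other convertase genes tested, only *Pcsk5* was called, higher in both lines (log2 change 2.78 ± 0.27, adjusted p = 7.33e-12, and 1.64 ± 0.27, adjusted p = 7.39e-06, limma). It started from 109 ± 25.7 normalised reads in untreated PRC1CKO cells and from 208 ± 43 in untreated PRC1CPM cells. *Furin*, *Pcsk1*, *Pcsk2* and *Pcsk7* were not called in either line. Among all transcripts tested, 16.5% were called higher in PRC1CKO and 13.1% in PRC1CPM cells. Of the inhibitors of NODAL, *Lefty1* fell in both lines (log2 change -1.65 and -1.04, adjusted p = 1.96e-08 and 0.000285, limma) and *Lefty2* was not called (-0.29 and -0.37).

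The genes of cell guidance and adhesion come next. *Slit2* (NM_001291227, chr5:47983155-48306282) encodes a secreted guidance cue. It had 2675, 2513 and 2283 normalised reads in untreated PRC1CKO cells and 5089, 5245 and 6150 after OHT. In PRC1CPM cells it had 2359, 1914 and 1250 untreated and 5431, 3874 and 4242 after OHT. The lines overlapped in both states.

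The other SLIT genes and the ROBO genes, which encode the receptors of SLIT proteins, rose in at least 1 line. All 6 tested (*Slit1*, *Slit3* and *Robo1* to *Robo4*) were called higher in PRC1CKO cells and 4 of them in PRC1CPM cells. *Robo1* was at 4773 ± 775 untreated and 8136 ± 717 after OHT in PRC1CKO cells, and its log2 change was 0.78 ± 0.20 there (adjusted p = 0.00198) and 0.73 ± 0.20 in PRC1CPM cells (adjusted p = 0.00547, limma). *Robo3* started at 38.3 ± 13.9 and had a log2 change of 2.93 ± 0.34 in PRC1CKO and 2.06 ± 0.34 in PRC1CPM cells (adjusted p = 1.07e-09 and 7.91e-06, limma). In PRC1CPM cells, *Slit3* (0.42, adjusted p = 0.252) and *Robo2* (0.80, adjusted p = 0.164) were not called, and with the replicate block *Robo2* was (adjusted p = 0.000670, limma). In a list of genes of neuronal growth, axon guidance and synapses, 28 of 59 genes tested were called higher and 3 lower in PRC1CKO cells, and 24 and 1 in PRC1CPM cells, with median log2 changes of 0.55 and 0.37. *Slit2*, which was chosen for rising, was its only member here, and 12 of the 14 lists that were drawn up held none of the 11 genes. The list also holds *Slit1*, *Slit3* and *Robo1* to *Robo3*, so its counts include their calls given above. Over all 15792 symbols tested, 2515 were called higher and 484 lower in PRC1CKO, and 2010 and 221 in PRC1CPM cells.

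*Sdk1* (NM_177879, chr5:141241534-142213791) encodes an adhesion molecule of the immunoglobulin superfamily that acts at synapses. It had 1616, 929 and 786 normalised reads in untreated PRC1CKO cells and 4995, 2803 and 3591 after OHT. In PRC1CPM cells it had 2010, 1586 and 1133 untreated and 5152, 3344 and 2770 after OHT. Its paralogue *Sdk2* was called higher in both lines (log2 change 1.10 ± 0.24, adjusted p = 0.000302, and 0.77 ± 0.24, adjusted p = 0.0178, limma).

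*Megf11* (NM_001134399, chr9:64385626-64709205) encodes a membrane protein with EGF repeats that spaces neurons in the retina. Its values were 1503 ± 381 and 3883 ± 660 in PRC1CKO and 1740 ± 439 and 3954 ± 804 in PRC1CPM cells, before and after OHT. The paralogue *Megf10* was called higher in PRC1CKO cells (log2 change 1.22 ± 0.40, adjusted p = 0.0208, limma) and had 0.82 in PRC1CPM cells (adjusted p = 0.200), where the replicate block called it higher as well (adjusted p = 0.00656). The changes of *Megf10* differed by -0.40 ± 0.56 between the lines (interaction, adjusted p = 1.00, limma), which was not called. *Megf6* was called only with the block, in PRC1CPM cells (0.62, adjusted p = 3.04e-05).

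The last group encodes nuclear proteins. *Hmga2* (NM_010441, chr10:120361275-120476935) encodes an AT-hook chromatin protein of embryonic cells and a classic target of the let-7 microRNAs. It had 1507, 1040 and 760 normalised reads in untreated PRC1CKO cells and 4541, 3251 and 4023 after OHT. In PRC1CPM cells it had 1378, 997 and 1128 untreated and 3204, 2068 and 2267 after OHT. After treatment every PRC1CPM library was below every PRC1CKO library, although the untreated values were interspersed. The paralogue *Hmga1* was called lower in PRC1CKO cells (log2 change -0.67 ± 0.25, adjusted p = 0.0465, limma) and had -0.40 in PRC1CPM cells. Of the let-7 inhibitors, *Lin28b* was called higher in PRC1CKO cells (0.64 ± 0.23, adjusted p = 0.0384, limma; 0.48 in PRC1CPM), and *Lin28a* was not called (-0.47 and -0.34).

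*Zbtb7c* (NM_145356) on chromosome 18 encodes a zinc finger transcription factor with a BTB domain. Its values were 1125 ± 258 and 2304 ± 465 in PRC1CKO and 1009 ± 252 and 2132 ± 617 in PRC1CPM cells, before and after OHT. The paralogue *Zbtb7b* was called higher in PRC1CKO cells (1.01 ± 0.27, adjusted p = 0.00414, limma; 0.40 in PRC1CPM) and *Zbtb7a* in neither. A list of transcription factors outside the dropped families holds *Hmga2* and *Zbtb7c*, which were chosen for rising. Of its 110 genes tested, 49 were called higher and 12 lower in PRC1CKO cells, and 46 and 5 in PRC1CPM cells. Among all 15792 symbols tested, these counts were 2515 and 484 in PRC1CKO, and 2010 and 221 in PRC1CPM cells.

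**Figure D4:**
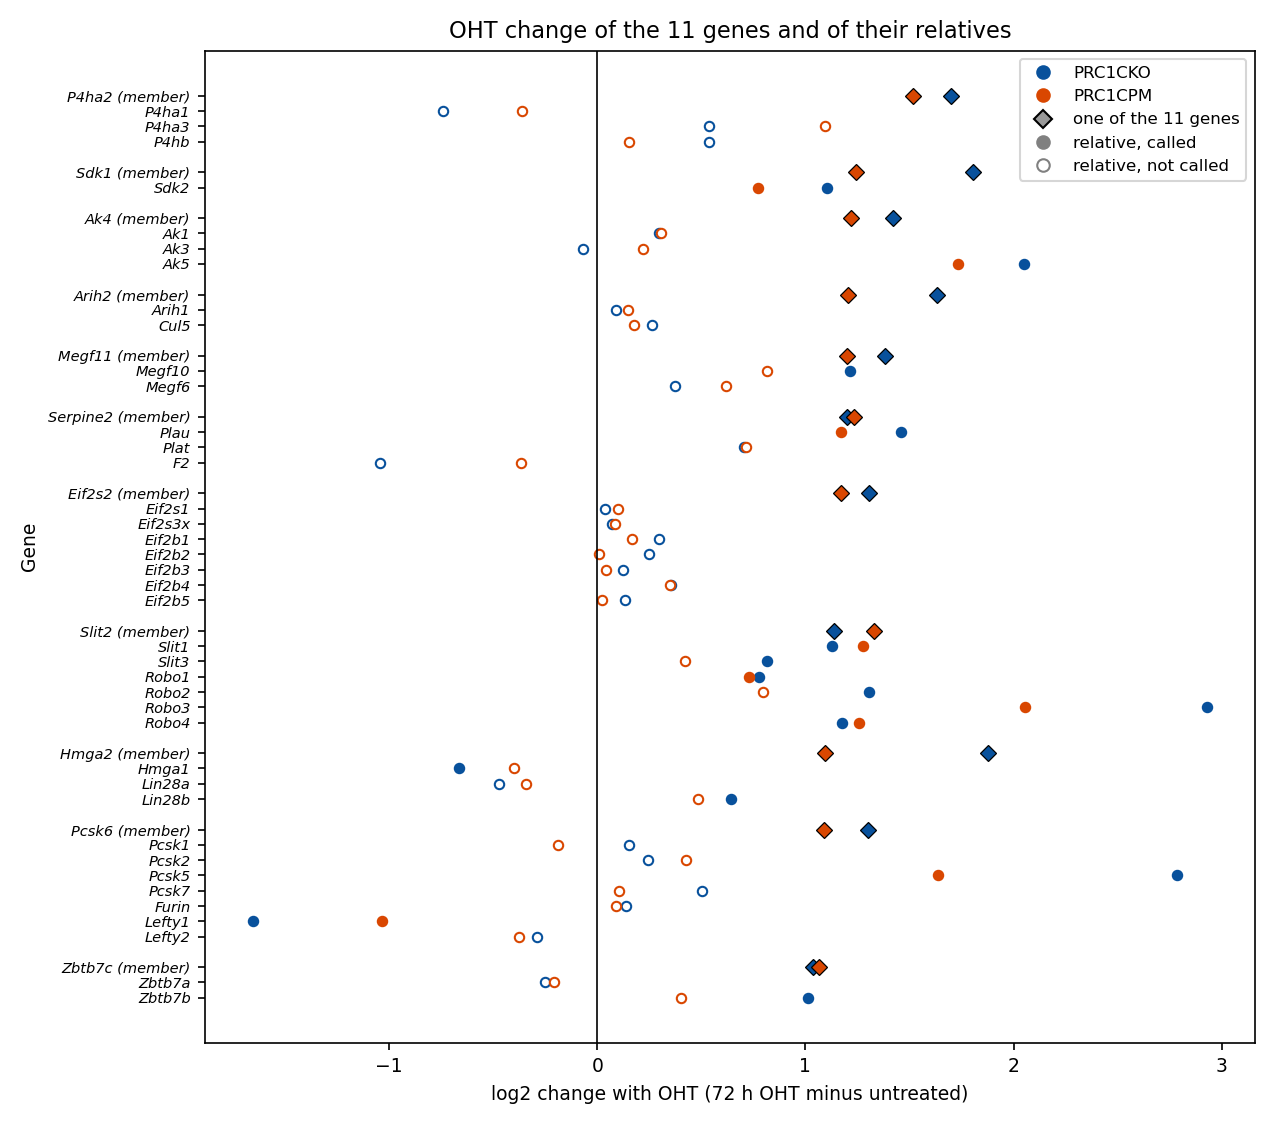
log2 change with OHT of the 11 genes (diamonds, mean of log2 values) and of 39 relatives tested (circles, limma fit without the replicate block, filled where called), in PRC1CKO (blue) and PRC1CPM cells (orange). The relatives of *Slit2* lie to the right of 0 and mostly filled, whereas the 7 of *Eif2s2* cluster near 0.

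The comparison between the lines is limited by the choice of members. It asked for an untreated mean past the floor and at least a doubling in both lines, which left out genes that were high or rose in 1 line alone, so nothing is read from the absence of calls. Limma called none of the 11 genes in the OHT-treated cells, where 1.47% of all transcripts tested were called, and none in the untreated cells, where 2.69% were. With an unadjusted p under 0.05 there were 4 and 3 of the 11 genes, against 1862 and 2391 of the 16940 transcripts tested. edgeR and DESeq2 on the recovered reads also called none, with 4 and 3 genes (treated) and 3 and 1 (untreated) at an unadjusted p under 0.05, where these tools had 12.2% and 12.4% (treated) and 13.4% and 13.8% (untreated) of all transcripts. In treated cells 8 of the 11 genes were lower in PRC1CPM, with a median log2 difference of -0.13, against 0.097 over all transcripts tested. This count was 10 on the TMM scale and 5 on the spike-in scale without its gDNA-seq correction. Without replicate 1 of treated PRC1CPM it was 10 (median -0.35), and without replicate 1 of treated PRC1CKO it was 6 (median -0.0037). In untreated cells 6 were lower, with a median of -0.062 against 0.12, but 9 were lower without the gDNA-seq correction and 2 without replicate 1 of untreated PRC1CKO.

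The largest treated difference was that of *Hmga2*, with a log2 difference (PRC1CPM minus PRC1CKO) of -0.66 ± 0.23 (SE, 95% confidence interval -1.12 to -0.197, adjusted p = 0.163, limma). *Arih2* followed at -0.57 ± 0.20 (adjusted p = 0.181), *P4ha2* at 0.52 ± 0.24 (adjusted p = 0.395) and *Eif2s2* at -0.45 ± 0.19 (adjusted p = 0.316). These 4 genes and *Pcsk6* (-0.30) were the ones whose treated libraries did not overlap between the lines, 5 of 11, where 16.3% of all transcripts tested did not overlap in either direction. No exact two-sided permutation test of 3 against 3 libraries can give a p below 0.1.

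Same-numbered libraries of the lines deviated together, so a fit with the replicate number as a block was also made. With this block, *Hmga2* was called lower in treated PRC1CPM cells (adjusted p = 2.58e-05, limma), and 8.05% of all transcripts were called. *Arih2* had an adjusted p of 0.000333, *Eif2s2* one of 0.0113 and *P4ha2* one of 0.00136, but their fold differences were below 1.5. For the 7 genes with smaller treated differences these lay between -0.30 and 0.022. In the fit without the block, the intervals of *Ak4* (0.0012, 95% confidence interval -0.424 to 0.426) and *Serpine2* (-0.026, -0.467 to 0.416) still allow differences of about 0.4 in either direction.

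Before treatment, *P4ha2* differed most, with a log2 difference of 0.70 ± 0.24 (95% confidence interval 0.219 to 1.18, adjusted p = 0.106, limma), and with the block it was called higher in PRC1CPM cells (adjusted p = 2.96e-06), where 11.1% of all transcripts were called in either direction. None of the 11 genes had untreated libraries that did not overlap between the lines, against 11.8% of all transcripts. *Sdk1* (0.54 ± 0.25, adjusted p = 0.299) and *Slit2* (-0.48 ± 0.21, adjusted p = 0.277) came next, with an adjusted p of 0.000679 and 0.00260 with the block and fold changes below 1.5. *P4ha2* lies on chromosome 11, where the median difference between the lines over 1380 transcripts was 0.45 untreated and 0.42 after OHT, the highest of any chromosome, against 0.12 and 0.097 over all transcripts. The other members lie on chromosomes whose medians ran from -0.16 to 0.11. The part of the chromosome in the difference of *P4ha2* was not tested.

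**Figure D5:**
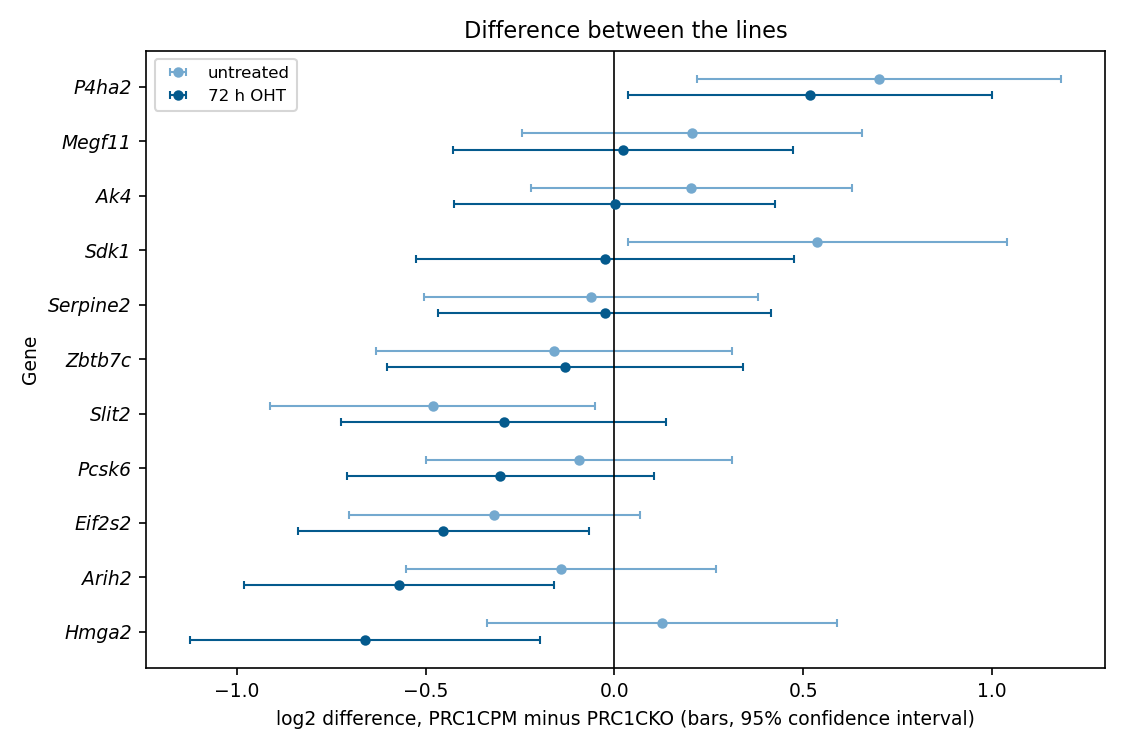
log2 difference between the lines (PRC1CPM minus PRC1CKO) for each of the 11 genes, untreated (light) and after OHT (dark), from the limma fit with 95% confidence intervals. *P4ha2* lies right of 0 in both states, and *Hmga2* lies left of 0 only after OHT.

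The interaction asks whether OHT changed a gene to a different extent in the lines. It was called for none of the 11 genes by limma, edgeR or DESeq2, and limma called it for 0.0236% of all transcripts. The rule itself limits this difference, since it left out 28 genes past the floor that doubled in PRC1CKO cells alone and 5 that did so in PRC1CPM cells alone. With the replicate number as a block limma called *Hmga2* (adjusted p = 0.00334) and 1.91% of all transcripts, although 1 of the same-numbered pairs correlated below 0.1. At an unadjusted p under 0.05, without the block, each tool had 1 gene, beside 2.93% (limma), 3.08% (edgeR) and 3.27% (DESeq2) of all transcripts, and that gene was *Hmga2* in the limma fit (-0.79 ± 0.33, 95% confidence interval -1.44 to -0.131, adjusted p = 1.00). The change was smaller in PRC1CPM cells for 8 of the 11 genes and larger for *Serpine2*, *Slit2* and *Zbtb7c*. Without the gDNA-seq correction of the scale it was smaller for 2 genes and larger for 9. Without or with the block, the interaction was also not called for the 6 paralogues and partners called in PRC1CKO cells alone without it (*Hmga1*, *Lin28b*, *Megf10*, *Robo2*, *Slit3* and *Zbtb7b*), which had interactions between -0.61 and 0.27 (adjusted p = 1.00 each, limma without the block). The block called those of *Pcsk5* (-1.15, adjusted p = 0.000554, limma) and *Lefty1* (0.62, adjusted p = 0.0445). Without the block, *Pcsk5* was already higher in PRC1CPM than in PRC1CKO cells before OHT (log2 difference 0.92, adjusted p = 0.0481, limma). After OHT its difference was -0.22 and was not called. *Lefty1* was not called between the untreated lines (0.68) and was higher in PRC1CPM cells after OHT (1.29, adjusted p = 0.000128, limma).

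Markers of other cell types moved with treatment as well. Over all transcripts tested, limma called 16.5% higher in PRC1CKO and 13.1% in PRC1CPM cells, and 19.5% and 14.5% in either direction. Of 14 markers of primitive and parietal endoderm tested, 8 were called higher and 1 lower in PRC1CKO cells and 10 higher in PRC1CPM cells. *Ttr* was at 0 in untreated cells. The 16 markers of this list summed to 37808, 22304 and 17850 in untreated and to 49093, 42306 and 37871 in treated PRC1CKO cells, with *Lamb1* the most abundant. In PRC1CPM cells the sums were 33311, 22271 and 26257 untreated and 48255, 30322 and 34309 treated. The list holds *Col4a1* and *Col4a2*, which met the limits of the rule and are part of these sums and calls. Their means went from 3709 to 11344 and from 2173 to 6358 in PRC1CKO cells. In PRC1CPM cells they went from 2962 to 6820 and from 1636 to 3890. Nothing is read from the rise of the sums, since these genes share in it. Of the genes of the list, 3 reached the floor of 1000 outside the dropped families. Calls higher in PRC1CKO and PRC1CPM cells numbered 4 and 4 of 8 for trophoblast, 6 and 4 of 10 for neural progenitor, 4 and 4 of 8 for mesoderm and 6 and 6 of 7 for germ cell markers. One trophoblast and 1 neural progenitor marker were called lower in PRC1CKO cells. Of 10 ESC markers none was called higher, and 3 were called lower in PRC1CKO and 1 in PRC1CPM cells.

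Fibroblast markers set replicate 1 of PRC1CPM cells apart, and also replicate 1 of untreated PRC1CKO cells. The 10 markers, led by *Col1a1*, summed to 16798, 4895 and 5582 in untreated and 16939, 5775 and 7491 in treated PRC1CPM cells. In PRC1CKO cells they summed to 7568.5, 2757 and 3630 untreated and 5104, 4350 and 4581 treated. Replicate 1 of untreated PRC1CKO cells, with the highest of these sums in its group, was also the highest there for all 11 genes. Replicate 1 of untreated PRC1CPM cells was the highest of its group for 7 of the 11 genes, as replicate 1 of treated PRC1CPM cells was for 7, and both had the highest total of normalised reads of their groups. *P4ha2*, in treated PRC1CPM cells, was highest in replicate 3 (7893 normalised reads against 6317 in replicate 1). Of 8 fibroblast markers tested, 2 were called higher and 1 lower in PRC1CKO and 1 higher in PRC1CPM cells after OHT. The share of all transcripts called higher was 16.5% in PRC1CKO and 13.1% in PRC1CPM cells. With the replicate block 2 of these markers were called higher and 2 lower in PRC1CKO and 2 higher and 1 lower in PRC1CPM cells. The block called 25.1% and 20.6% of all transcripts in these lines, in either direction. The part of these marker levels in the values of the 11 genes was not tested.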

How the data were processed

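The 12 cRNA-seq libraries were assigned to 4 conditions from their labels, and the 12 gDNA-seq libraries that calibrated them were not used here. The authors removed rDNA reads, aligned the rest with STAR and Bowtie2 to mm10 and dm6, kept unique reads without PCR duplicates and counted them over gene bodies. Their deposited signal is this read count divided by 1 DESeq2 size factor per library, computed from *Drosophila* reads and corrected by gDNA-seq. The authors' own fold changes and adjusted p-values, in the same table, were not used. Whether counting used the strand is not given in the sources used here.

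In each library, 100% of values were whole multiples of 1 read within a tolerance of 0.02 reads. Transcripts reaching 10 reads in 3 or more libraries were fitted as log2(value + 1) with limma 3.58.1 in R 4.3.3 (1 mean per condition, mean-variance trend, Benjamini-Hochberg adjustment over 16940 transcripts). A call required more than a 1.5-fold difference with an adjusted p below 0.05, or for the interaction that p alone. A fold change is on the log2(value + 1) scale. edgeR 4.0.16 and DESeq2 1.42.0 on the recovered reads, TMM, the spike-in without its gDNA-seq correction, no filter, a pseudocount of 0.1, a replicate block and each library left out were alternatives. The deposited start is 1 base below the first base, so 1 was added.

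Deviations of same-numbered libraries correlated at 0.205 on average (0.0988 to 0.438, 18 pairs) against -0.102 for 36 other pairs, and every same-numbered pair of untreated or of treated libraries across the lines was above 0.1, which is where the pairing comes from. Deviations were taken from the mean of the 3 libraries of each group. The average of the other pairs thus follows largely from that of the same-numbered pairs and is no separate evidence. Each condition has 3 replicates. Members, lists and relatives were chosen with earlier results of these data known. The rule for named genes took the members by level, change, difference between the lines and list, and the 3 genes on each side of a limit. Relatives, neighbours, *Ring1*, *Rnf2*, *Col4a1*, *Col4a2*, the most abundant markers and *Ttr* fall outside it and were named with values known.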

Additional observations from a re-analysis of the deposited data

How the results depend on the processing

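The rule found 11 genes with the deposited values, and between 7 and 18 when 1 library was left out. Without replicate 1 of treated PRC1CPM it lost *Hmga2*, *Pcsk6*, *Sdk1* and *Zbtb7c* (7 genes), and without replicate 3 of treated PRC1CPM it gained 7 and lost none (18 genes). It found 8 with TMM, 16 without the gDNA-seq correction, 49 with a floor of 500 and 5 with a floor of 2000. *Ak4*, *Arih2*, *Eif2s2*, *P4ha2* and *Serpine2* met it under all 16 alternatives that kept the floor, and *Zbtb7c* under 6.

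No member was called between the lines in the limma fit. In treated cells TMM called 2 (*Hmga2* and *Arih2*, lower in PRC1CPM; 4.63% of all transcripts, against 1.47%) and the replicate block 1. In untreated cells TMM called 2 (*P4ha2* higher, *Slit2* lower; 6.20% of all, against 2.69%), the block 1, and leaving out a library 0 to 2, with *Sdk1* and *P4ha2* called without replicate 1 of untreated PRC1CKO (9.27% of all) and *P4ha2* without replicate 2 of untreated PRC1CPM (4.17% of all). The block called the interaction of 1 gene, *Hmga2* (adjusted p = 0.00334); 1 of the same-numbered pairs there correlated below 0.1. It changed no other call of a member between the lines. Over all transcripts the block raised the calls from 249 to 1363 (treated), 455 to 1884 (untreated) and 4 to 324 (interaction), and the calls for OHT from 3311 to 4258 (PRC1CKO) and 2463 to 3494 (PRC1CPM). Calls among the 39 relatives went from 15 to 18 in PRC1CKO and from 9 to 14 in PRC1CPM cells. Relative to the deposited scale, the median of all transcripts moved by -0.10 (treated) and -0.11 (untreated) with TMM and by 0.17 and -0.28 when the gDNA-seq correction was dropped, which also moved that of the interaction by 0.45.

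Some differences changed sign, the largest of them the interaction of *Arih2* (-0.43 on the deposited scale). With TMM the treated differences of *Ak4* and *Megf11* became -0.10 and -0.080. Without the gDNA-seq correction the treated differences of *Sdk1*, *Serpine2* and *Zbtb7c* became 0.14, 0.14 and 0.038, the untreated ones of *Ak4*, *Hmga2* and *Megf11* -0.078, -0.16 and -0.077, and the interactions of *Ak4*, *Arih2*, *Eif2s2*, *Megf11*, *P4ha2* and *Pcsk6* 0.25, 0.023, 0.32, 0.27, 0.27 and 0.24. Leaving out 1 library moved the treated difference of *Ak4* between -0.12 and 0.16, *Megf11* -0.14 and 0.14, *Sdk1* -0.28 and 0.19, *Serpine2* -0.21 and 0.098 and *Zbtb7c* -0.35 and 0.057. It moved the untreated difference of *Arih2* between -0.30 and 0.017, *Hmga2* -0.11 and 0.38, *Pcsk6* -0.20 and 0.086, *Serpine2* -0.26 and 0.14 and *Zbtb7c* -0.36 and 0.015. It moved the interaction of *P4ha2* between -0.54 and 0.063, *Serpine2* -0.17 and 0.23, *Slit2* -0.067 and 0.39 and *Zbtb7c* -0.19 and 0.23. The cause of these changes was not tested.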
